A study of Macaca fascicularis with 6 samples.

Results

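Alveolar macrophages were taken from single-cell RNA libraries of lung from 6 cynomolgus monkeys. A cell belonged to the class when it had a unique molecular identifier (UMI, the tag that marks 1 captured RNA molecule) of at least 2 of FABP4, MCEMP1 and CHIT1, a UMI of MARCO or MRC1, and none of the lymphocyte genes CD3D, CD3E and MS4A1. The rule found 1994 cells among 25388 that passed quality control (501 to 4999 genes, at most 25% of UMIs in 13 mitochondrial genes), or 7.85%. Of these, 1108 came from control and 886 from asthma libraries. The rule reads expression, so the levels of its own genes describe the selection and were not tested.

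All monkeys were male and 3 to 5 years old, and each gave 1 library, numbered here as in the labels. The asthma group (replicates 8, 10 and 11) was sensitized under the skin with Ascaris suum antigen at 1 mg/mL in adjuvant and then challenged through the nose at 10 mg/mL. The control group (replicates 1, 2 and 3) received saline instead. Lungs were collected in week 11, dissociated with enzymes, and depleted of red and dead cells, with no sort for macrophages. The libraries held 29014556 to 41489879 UMIs each, of which 4450547 to 14861729 lay in the gated cells.

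Alveolar macrophages live on the air side of the lung, where they take up inhaled particles and spent surfactant. GM-CSF from the epithelium and the transcription factor PPARG maintain them, and they are known for a lipid-handling programme and for the scavenger receptors MARCO and MRC1 (CD206). Interstitial macrophages of the lung wall, which carry FOLR2 and complement C1q, are a separate population. In allergic airway disease macrophages have been studied as sources of chemokines, among them CCL17 and CCL18, and as regulators of inflammation.

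The label was checked against PPARG, which the rule did not use. A UMI of it was in 86.8 to 98.6% of gated cells and in 2.22 to 5.58% of T cells. The shares of the gate genes follow from the rule and describe it. FABP4, a fatty acid-binding protein, was detected in 69.3 to 92.7% of the gated cells of a library, against 3.02 to 11% of T cells, which should lack it. For MRC1 the ranges were 97.5 to 100% and 4.93 to 8.91%. The T cells were taken as cells with a UMI of CD3D or CD3E. Their median depths were 3263 to 4854 UMIs, well under those of the gated cells. Cells that also carried the macrophage genes of the rule were not taken out of them. The T-cell shares therefore do not measure free RNA alone.

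The levels of the gate genes are given in CPM, the UMIs of a gene per 1000000 UMIs of a library's gated cells. FABP4 was at 1898, 1273 and 1039.6 CPM in the control libraries and 3945, 1615 and 1878 CPM in the asthma libraries. CHIT1, the chitinase chitotriosidase, was at 3319, 796 and 1975 CPM in the control libraries and 1924, 1086 and 3302 CPM in the asthma libraries. CHIT1 spread more between the control libraries than FABP4, and the groups overlapped for both. MCEMP1, a membrane protein of myeloid cells, ranged from 1077 to 1982 CPM, MARCO from 480.0 to 1088 CPM and MRC1 from 1210.2 to 2193 CPM.

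Most gated cells (1338) had all 3 of FABP4, MCEMP1 and CHIT1, and 656 had 2. In the pooled cells with all 3, PPARG stood at 378 CPM and C1QA, a chain of complement C1q, at 433 CPM. In those with 2, just inside the rule, the values were 321 and 871 CPM. Libraries did not enter these classes equally, since asthma replicate 10, the library highest in C1QA, gave 128 of the 1338 cells with all 3 genes and 285 of the 1994 gated cells. The 808 cells with only 1 of the 3 genes, just outside, had 153 CPM of PPARG, 1501 CPM of C1QA and 196 CPM of FOLR2. Another 209 cells lacked both MARCO and MRC1 and had 1118 CPM of VCAN, a monocyte gene. A further 307 were left out for a UMI of CD3D, CD3E or MS4A1. Their PPARG, which the rule did not use, stood at 313 CPM. They had at least 2 of the 3 genes, so their FABP4 level (2098 CPM) follows from the selection.

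In every library the gated cells had a higher median of UMIs per cell than the T cells and than 2 other myeloid classes, FOLR2 macrophages and VCAN monocytes. Their median was 21362 to 29585 UMIs and 3888.5 to 4375 genes per cell in a library, against 3790 to 4853 UMIs over all quality-controlled cells. The gene maximum therefore removed cells that met the marker rule, namely 72, 60 and 7 barcodes of the control libraries and 92, 55 and 36 of the asthma libraries. That was 3.21% of those otherwise meeting it in control replicate 3 and 26.9% in control replicate 2. No gated barcode was shared between libraries. Cells given the highest doublet scores by Scrublet made up 3.96% of gated cells and 4.7% of all cells. How many were taken was fixed beforehand, at 0.8% of cells per 1000 barcodes, so the 4.7% is not a measured doublet rate. The own threshold of Scrublet marked 8 cells, or 0.0315%, and so gave no usable call.

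The first comparison asked whether the asthma group held more or fewer of these cells. They made up 16.3, 4.64 and 5.19% of cells in the 3 control libraries and 9.22, 6.04 and 4.77% in the 3 asthma libraries, in the same order. Control replicate 1 stood highest, and the other 5 libraries lay between 4.64 and 9.22%, with the groups overlapping. The means were 8.70 ± 6.57% in control and 6.68 ± 2.29% in asthma (SD, n = 3 each), a difference of −2.03 percentage points (p = 0.9, two-sided exact permutation test, whose smallest possible p is 0.1). Without control replicate 1 the difference was 1.76 points in the opposite direction. Because of their depth, the cells carried a larger share of the RNA counted, 42.4, 18.2 and 17.0% of UMIs in control and 28.0, 19.9 and 17.2% in asthma.

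**Figure D1:**
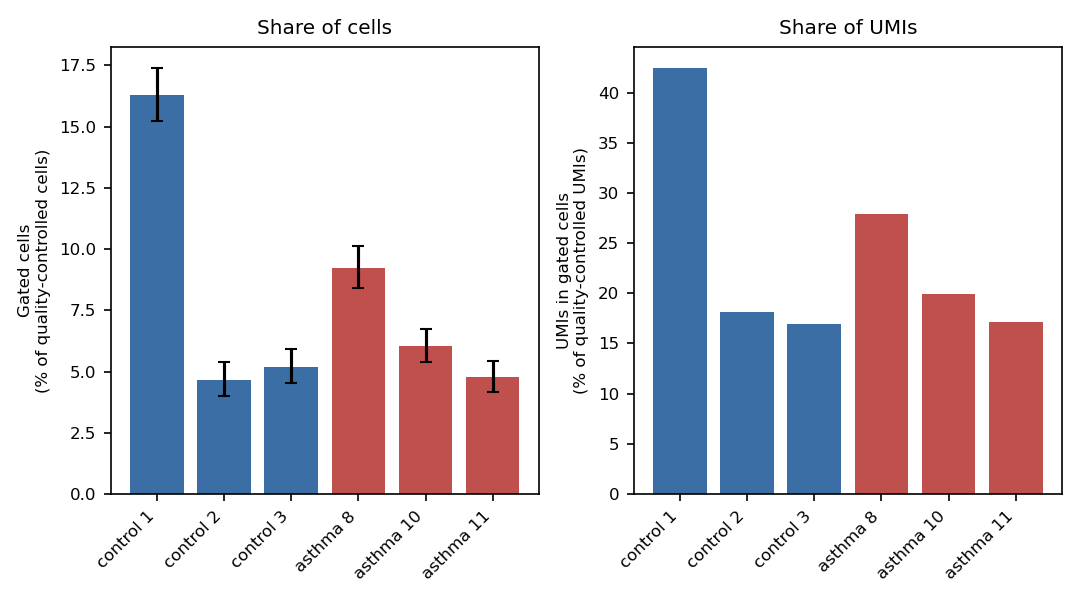
Gated alveolar macrophages as a percentage of quality-controlled cells (left, bars with 95% Wilson intervals, which cover counting error only) and of their UMIs (right) in each of the 6 libraries, control in blue and asthma in red. Control replicate 1 stands highest in both, at 16.3% of cells and 42.4% of UMIs, and the groups overlap.

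The 20 most abundant genes that were neither mitochondrial nor ribosomal took 16.3 to 18.4% of UMIs. The ferritin chains led, FTH1 with a mean of 38402 CPM over the 6 libraries and FTL with 26511 CPM, followed by the lipid carrier APOE with 14777 CPM and lysozyme, LYZ, with 12694 CPM. LYZ ranged from 7964 to 11953 CPM in 5 libraries and stood at 27960.3 CPM in control replicate 3. The class II molecule HLA-DRA and its chaperone CD74 had means of 8784 and 6660.4 CPM. Lysosomal proteins were among the 20 as well, with CTSD (cathepsin D) at 2593 CPM, PSAP (the saposin precursor) at 2973 CPM and the membrane protein CD63 at 3303 CPM. CFD, complement factor D, had 3083 CPM and the lectin LGALS3 3465 CPM. The rest were the cytoskeletal genes VIM, ACTB, ACTG1 and TMSB10, the translation and RNA-binding genes EEF1A1, TPT1 and YBX1, and S100A6 and FCER1G. The assay reads 3′ ends, so these levels were not divided by gene length.

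The gated cells were set beside these 2 myeloid classes of the same libraries. FOLR2 macrophages (956 cells) had UMIs of FOLR2 and of C1QA or C1QB, and VCAN monocytes (2069 cells) had UMIs of VCAN and of S100A8 or S100A9 and none of C1QA, C1QB and C1QC. All 3 classes were cut from expression, so the contrasts are descriptions over 6 libraries, with 10 CPM added to both sides of each ratio. The genes with the highest median ratio over FOLR2 macrophages were CHIT1 (54.4-fold), FABP4 (49-fold), SCD (31.5-fold), MARCO (24.1-fold), MCEMP1 (18.1-fold), AWAT2 (17.6-fold), CHI3L1 (17.3-fold), PTGDS (8.87-fold), ARHGEF28 (7.82-fold) and GPD1 (6.63-fold). The rule did not use 6 of them. SCD encodes the stearoyl-CoA desaturase, AWAT2 an acyltransferase for wax esters and GPD1 a glycerol-3-phosphate dehydrogenase. CHI3L1 is a chitinase-like protein, PTGDS a prostaglandin D2 synthase and ARHGEF28 a guanine nucleotide exchange factor. PTGDS was above the FOLR2 macrophages in 5 of 6 libraries and above the VCAN monocytes in 4 of 6, the other 5 in 6 of 6 for both.

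PPARG ranged from 314 to 382 CPM in the gated cells, from 34.6 to 112 CPM in FOLR2 macrophages and from 2.85 to 24 CPM in VCAN monocytes, so that no 2 of the 3 classes overlapped. The mitochondrial sterol hydroxylase CYP27A1 was at 716 to 951 CPM in the gated cells and 343 to 687 CPM in FOLR2 macrophages. CCL18, a chemokine, was higher in the gated cells than in FOLR2 macrophages in 5 of 6 libraries, with a median ratio of 3.61. APOE did not separate the 2 macrophage classes, with 10803 to 22192 CPM and 9562 to 21343 CPM.

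Genes lower in the gated cells included TMEM176B, a membrane protein of myeloid cells, with a median of 24.8 times more in FOLR2 macrophages, STAB1, a scavenger receptor of tissue macrophages, with 18.1 times, and LTC4S, the leukotriene C4 synthase, with 8.75 times. CSF1R, the receptor for M-CSF, was at 153 to 343 CPM in the gated cells and 858 to 1151 CPM in FOLR2 macrophages. HLA-DRA and CD74 stood 2.1 and 2.23 times higher in FOLR2 macrophages by the median, and in all 6 libraries. CCL17, a ligand of the receptor CCR4, was at 1.08 to 44.3 CPM in the gated cells and at 60.7 to 1435 CPM in FOLR2 macrophages. IL1B was at 246 to 499 CPM in the gated cells and at 931 to 3831 CPM in VCAN monocytes.

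**Figure D2:**
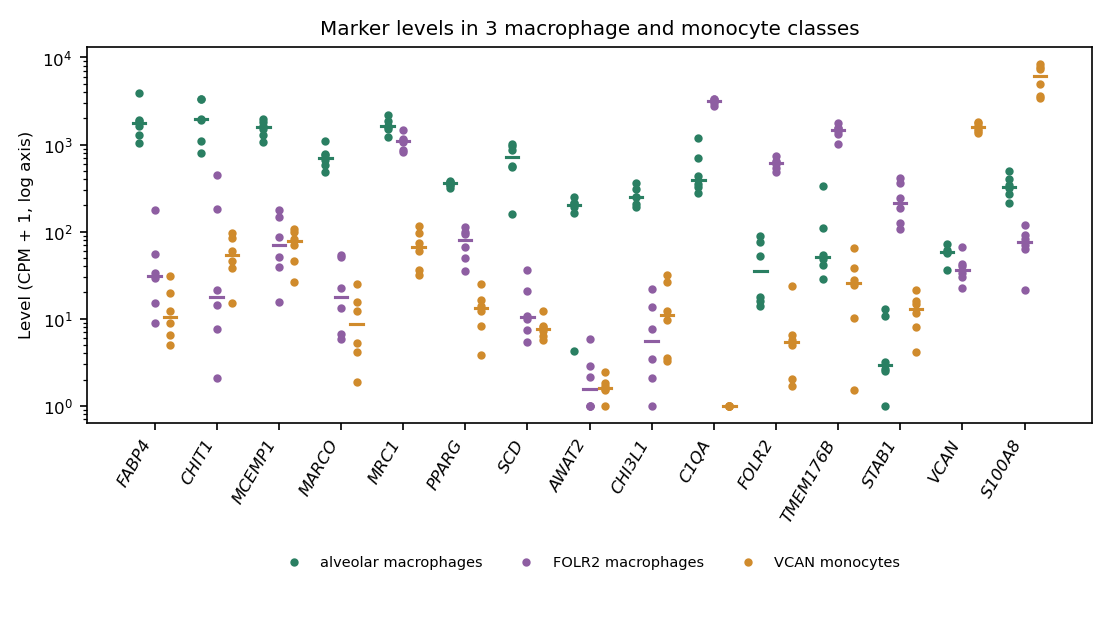
Levels of 15 genes (CPM + 1, log axis) in alveolar macrophages (green), FOLR2 macrophages (purple) and VCAN monocytes (orange), with 1 point per library and a bar at the median of the 6 libraries. Of the genes not used to cut any class, PPARG (314 to 382 CPM in alveolar macrophages) shows the least spread between libraries, and AWAT2 has 1 low point at 3.24 CPM, asthma replicate 10.

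That library stood apart within the class. AWAT2 was at 161, 210.3 and 248 CPM in the control libraries and 193, 3.24 and 212 CPM in the asthma libraries. SCD was at 546, 866 and 965 against 564, 157 and 1011 CPM, PTGDS at 696, 122 and 394 against 245, 10.6 and 348 CPM and GPD1 at 54.4, 101 and 171 against 76.5, 27.1 and 125 CPM, control libraries first. In each of these 4 genes asthma replicate 10 was the lowest of the 6 libraries. They were picked from the genes with the highest ratio over FOLR2 macrophages, and not all of those followed. CHI3L1 and the gate genes FABP4 and CHIT1 were lowest in a control library. Asthma replicate 10 was the highest for TMEM176B (329 CPM against 27.2 to 109 CPM elsewhere) and C1QA (1177 CPM against 279 to 692 CPM), and for HLA-DRA (14654 CPM against 5632 to 9145 CPM). STAB1 and LTC4S, which were also higher in FOLR2 macrophages, were highest in asthma replicate 11 instead. PPARG, at 342 CPM, lay within the range of the others. The library also held the most FOLR2 macrophages, 343 cells or 7.27% against 1.63 to 5.19% elsewhere. Whether cells between the 2 classes entered the gate was not tested. For several results below that moved with this library, the value without it is given as well.

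Within a library the cells varied most in a few genes. The variance of UMIs per cell over their mean, after each cell was thinned to 2000 UMIs, is near 1 for a gene that varies by counting alone. Its median over libraries was 1.08 for the transcription factor SPI1, 1.17 for PPARG and 1.77 for MRC1. It was 15 for CHIT1, 5.88 for PTGDS, 5.64 for FABP4 and 4.81 for CCL18. The rule used CHIT1, FABP4 and MRC1, so their values also reflect the selection, whereas PTGDS and CCL18 were not used. PTGDS was found in 8.42 to 41% of cells although its level reached 696 CPM, and CHIT1 in 68.1 to 93.7%. The highest value among the named genes was 82.9 for SFTPC, a surfactant protein of type 2 epithelial cells, where 1 cell held up to 53.5% of a library's UMIs.

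The main comparison was asthma against control in the summed counts of the gated cells of each library. With the edgeR quasi-likelihood test, 0 of 9796 genes met both thresholds, 0.05 on the adjusted p and 0.25 on the absolute log2 fold change (0%). At an unadjusted p under 0.05, 286 genes were higher in asthma (2.92%) and 250 lower (2.55%). DESeq2 called 12 genes up and 13 down on the same sums. A Wilcoxon test that took each cell as a replicate called 162 up and 116 down of 8206 genes, which compares the cells of these libraries and not the monkeys. Counted instead by whether the groups overlapped, 960 genes were higher in every asthma library than in any control library (9.8%) and 221 lower (2.26%), so that 81.3% were on the higher side. After scaling by the TMM factors of edgeR the counts were 538 and 514, with 51.1% on the higher side. The p-values rest on the spread between 3 monkeys per group.

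Since the edgeR test called no gene, the genes described next are those with an unadjusted p under 0.05, at least 20 CPM on average and no overlap in CPM between the groups, taken by size of change. There were 101 higher and 62 lower in asthma, and 12 are named in each direction. All were picked for their difference in these libraries, so their count supports nothing further.

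FOLR2, the folate receptor that marks interstitial macrophages, had the smallest p. Its levels were 17, 15.1 and 12.9 CPM in the control libraries and 74.1, 51.2 and 87.2 CPM in the asthma libraries. Every asthma library was above every control library, and asthma replicate 10 was the lowest of the asthma group. The means were 15 ± 2.04 CPM for control and 70.8 ± 18.2 CPM for asthma (mean ± SD, n = 3 each), and the test gave a log2 fold change 2.12, SE 0.21, edgeR adjusted p = 0.121, with 0.00253 to 0.999 over the other edgeR settings and 7.01e-13 in DESeq2. It was called by edgeR with genes of at least 1 count kept (adjusted p = 0.00253). A UMI of FOLR2 was found in 11.3, 23.3 and 19.9% of control and 56.9, 28.8 and 55.9% of asthma cells. In T cells of the same libraries the shares were 1.13, 1.66 and 1.07% in control and 3.22, 2.42 and 2.42% in asthma, lower but also without overlap, at a median depth well under that of the gated cells. FOLR2 is one of the markers listed for interstitial macrophages. Of 8 listed, 6 were in the files and all 6 were detected, with FOLR2 the most abundant, and their summed level was 32.7, 26.9 and 50.9 CPM over the control libraries and 89.7, 113 and 139.8 CPM over the asthma ones. Without FOLR2 the sum of the other 5 was 15.7, 11.9 and 38 CPM over the control libraries and 15.7, 61.8 and 52.6 CPM over the asthma ones, higher in asthma replicates 10 and 11 and within the control range in asthma replicate 8. Among the members, STAB1 was at 1.61, 0 and 1.48 against 2.22, 9.71 and 11.9 CPM, where the 0 of control replicate 2 allows up to 0.646 CPM, and F13A1 at 4.84, 4.31 and 3.59 against 3.97, 16.3 and 19.1 CPM. Their part in the FOLR2 difference was not tested. In the cells with all 3 of FABP4, MCEMP1 and CHIT1, the log2 fold change of FOLR2 was 2.78 (edgeR adjusted p = 0.818), and with cells carrying markers of another lineage removed it was 0.72 (edgeR adjusted p = 0.999). That setting removed cells with at least 2 markers of another lineage, which were 80.9 to 93.9% of the gated cells of a library. Endothelial markers alone met this in 51.6 to 84.0%. PECAM1, counted among them, was found in most gated cells, at a mean of 517 CPM. Most cells therefore needed only 1 more endothelial marker to be removed. The cells that this setting removed are thus not shown to be mixed.

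ATP6V0D2, a subunit of the vacuolar proton pump that acidifies lysosomes, had the largest change downward among the genes picked by the rule above. It stood at 61.1, 54.5 and 51.9 CPM in the control libraries and 5.61, 3.24 and 0.449 CPM in the asthma libraries. The 3 control libraries lay close together and the asthma libraries held 48, 21 and 2 UMIs. The means were 55.8 ± 4.73 CPM for control and 3.1 ± 2.58 CPM for asthma (mean ± SD, n = 3 each) and the log2 fold change -4.16, SE 0.50, edgeR adjusted p = 0.218, with 0.00253 to 0.999 over the other edgeR settings and 6.44e-17 in DESeq2. The gene was called by edgeR without asthma replicate 11 (adjusted p = 0.0202), with cells thinned before the gate (adjusted p = 0.0301) and with genes of at least 1 count kept (adjusted p = 0.00253). With cells carrying markers of another lineage removed its log2 fold change was −2.77 (edgeR adjusted p = 0.999), and without asthma replicate 8 it was −4.83. A UMI was found in 35, 53.4 and 37.4% of control and 7.05, 1.4 and 0.98% of asthma cells. In the control libraries 1 cell held at most 7.72% of its UMIs, and the groups did not overlap without the top cells.

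Of the other genes on the higher side, LY86 (MD-1), the partner of the receptor CD180, was at 88.8, 42.9 and 125 against 258, 253 and 459 CPM (log2 fold change 1.83, SE 0.39, edgeR adjusted p = 0.795). RARRES1, a retinoic acid-responsive gene, was at 32, 30.8 and 13.1 against 56.3, 210.1 and 133 CPM, and LAT2, an adaptor of immune receptors, at 12.6, 14.2 and 11 against 28.7, 92.3 and 36.6 CPM. LY86 was highest in asthma replicate 11, RARRES1 and LAT2 in asthma replicate 10. LILRB4, an inhibitory receptor, was at 4.78, 15.5 and 5.07 against 30.4, 45.6 and 19.5 CPM, and the carboxypeptidase CPVL at 62, 141 and 55.9 against 187, 527 and 189 CPM. DESeq2 called LY86, RARRES1 and LAT2 but not LILRB4 and CPVL, and edgeR called none of the 5 (adjusted p 0.795 to 0.849). Without asthma replicate 10 the log2 fold change of RARRES1 was 1.75 in place of 2.31, that of LAT2 1.23 in place of 1.99 and that of CPVL 0.97 in place of 1.71. Without control replicate 2 CPVL was at 2.32 and LILRB4 at 2.65 in place of 1.86. With at least 200 genes and no maximum LILRB4 was at 1.15. CPVL stood at −0.22 once cells with markers of another lineage were removed.

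For 5 more genes the difference rested largely on asthma replicate 10. They were MX2, IFIT1 and ISG15, which are induced by interferon, SIGLEC1, a sialic acid-binding receptor also known to respond to interferon, and TIMD4, a receptor for phosphatidylserine on dying cells. TIMD4 was at 14.7, 6.68 and 16 against 17.9, 112 and 19.8 CPM and SIGLEC1 at 14.8, 16.8 and 17.9 against 29.4, 106 and 20.9 CPM. The log2 fold changes of MX2, IFIT1, ISG15, SIGLEC1 and TIMD4 were 2.80, 2.60, 2.15, 1.601 and 1.94 with this library and 0.91, 1.24, 0.60, 0.48 and 0.45 without it. On the TMM scale the groups of MX2 and IFIT1 overlapped.

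CXCL10, a chemokine induced by interferon, was at 37, 38.6 and 9.71 against 62.4, 199 and 129 CPM, but single cells carried much of it. In asthma replicate 11, 1 cell held 93.8% of the UMIs. With the top cell of each library left out the levels were 16.3, 11.3 and 5.73 against 45.4, 100.1 and 8.13 CPM, which overlap. ISG15 and IFIT1 overlapped as well once the top cells were left out, and 1 cell of asthma replicate 11 held 73.4% of that library's ISG15. The other 21 of the 24 genes kept groups that did not overlap. In the share of cells with a UMI, the groups did not overlap for 12 of the 24.

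On the lower side were 3 secreted factors. EREG (epiregulin), a ligand of the EGF receptor, was at 105, 40.3 and 19.4 against 8.18, 16.2 and 9.89 CPM, the neutrophil chemoattractant CXCL3 at 401, 321 and 404 against 89.7, 242 and 142 CPM and the matrix glycoprotein THBS1 at 44.1, 36.6 and 50.9 against 14.6, 6.17 and 26.5 CPM. EREG spread most among the controls, where replicate 1 was highest, and its log2 fold change was -2.36 with that library and −1.50 without it. TFRC, the transferrin receptor through which iron enters cells, was at 162, 172 and 150.3 against 58.8, 122 and 92.6 CPM. The tetraspanin CD9, found in 97.1 to 99.5% of cells, was at 1382, 1340.1 and 1515 against 1028, 517 and 907 CPM (log2 fold change -0.90, SE 0.23, edgeR adjusted p = 0.795, DESeq2 adjusted p = 0.0448). NDRG2 was at 41, 38.4 and 27.2 against 6.66, 21.1 and 11.9 CPM and DYNLRB2, a dynein light chain, at 25.3, 22.6 and 31.9 against 14.5, 15 and 16.4 CPM.

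ND4L, a mitochondrially encoded subunit of complex I, was at 603, 798 and 857 against 559, 397 and 397 CPM. The total share of UMIs from mitochondrial genes in the gated cells was 4.16, 5.92 and 6.22% in control and 5.08, 4.55 and 3.76% in asthma, with the groups overlapping. PABPC1, the poly(A)-binding protein, was at 810.5, 672 and 1122 against 659, 482 and 507 CPM, and SIDT2, a lysosomal membrane protein, at 22.7, 23.1 and 32.9 against 19.5, 10.8 and 16.6 CPM. DCN (decorin), a proteoglycan of fibroblasts, was at 30.1, 33.6 and 104 against 12.6, 2.77 and 18.4 CPM, and it belongs to the stromal markers listed among those of other cells. In the control libraries 1 cell held 45.3, 59.6 and 46.2% of its UMIs. Its log2 fold change was -2.43, and it was −1.66 without control replicate 3, −0.34 with at least 200 genes and no maximum and −0.76 in cells with all 3 of FABP4, MCEMP1 and CHIT1. Adjusted p-values of these lower genes other than ATP6V0D2 ranged from 0.795 to 0.834 with edgeR, which called none of them. With cells carrying markers of another lineage removed, which leaves 10 to 139 cells per library, the log2 fold changes of THBS1, CD9, LAT2, SIGLEC1 and RARRES1 were −0.67, −0.41, 0.86, 0.69 and 1.68 in place of -1.61, -0.90, 1.99, 1.601 and 2.31, and that of CXCL10 was 2.95 in place of 2.101. That of NDRG2 was −2.11 without asthma replicate 10 in place of -1.51. Of the lower genes other than ATP6V0D2, DESeq2 called EREG (DESeq2 adjusted p = 0.00537), ND4L (DESeq2 adjusted p = 0.0342) and CD9.

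**Figure D3:**
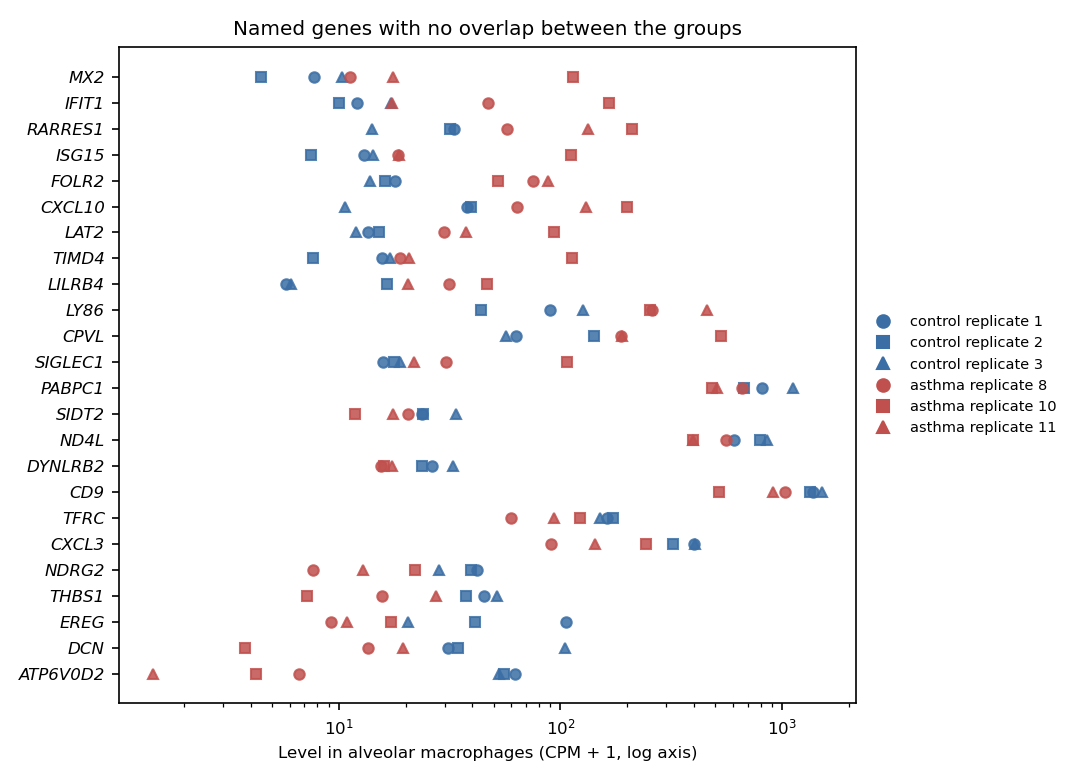
Levels in alveolar macrophages (CPM + 1, log axis) of the 24 named genes whose groups do not overlap, 1 point per library, control in blue and asthma in red, with shapes for replicates. In MX2, ISG15 and TIMD4 1 asthma library, replicate 10, lies far to the right of the others, while FOLR2 (51.2 to 87.2 CPM in asthma) and ATP6V0D2 (0.449 to 5.61 CPM) separate all 3.

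The gene lists of macrophage functions were chosen for what their members do. The edgeR fit called none of the members, while DESeq2 called CHI3L2, CCL17 and MT2A. Each list is given by how many of its tested members had an unadjusted p under 0.05, to be read against 2.92% higher and 2.55% lower over all genes, and by its median log2 fold change, which was 4.15e-04 over all genes. In surfactant and lipid handling, 0 of 14 tested members were higher and 1 lower, with a median of 0.15, which was -0.099 without asthma replicate 10. The lower one was CD36, a fatty acid translocase and scavenger receptor, at 72.7, 48 and 66.1 against 41, 31 and 51.7 CPM (log2 fold change -0.70, edgeR adjusted p = 0.814), where the groups overlapped. APOE was at 13416, 15829.8 and 10847 against 10803, 22192 and 15572 CPM and the sterol transporter NPC2 at 1296, 943 and 1021 against 1144, 1435 and 1113 CPM, both overlapping. CYP27A1 was at 772, 716 and 734 against 871, 852 and 951 CPM, higher in every asthma library by a small margin (log2 fold change 0.17, edgeR adjusted p = 0.938). LPL, the lipoprotein lipase, was at 98.6, 51.5 and 85.7 against 212, 21.7 and 134 CPM, lowest in asthma replicate 10.

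Scavenger and pattern recognition receptors had 2 of 12 members higher and 0 lower, with a median of -0.0007. The 2 were SIGLEC1 and STAB1, described above. The number higher was 1 without control replicate 1, 2 or 3 or asthma replicate 10, and 2 without asthma replicate 8 or 11. Without control replicate 2 or asthma replicate 10, 1 member was lower. With cells carrying markers of another lineage removed, 0 of 10 were higher. CD163, the haemoglobin scavenger, was at 678, 315 and 623 against 632, 303 and 610.3 CPM, the oxidized LDL receptor OLR1 at 458, 593 and 735 against 888, 654 and 476 CPM and CD68 at 796, 1267 and 1018 against 1226, 767 and 987 CPM. All 3 overlapped between the groups.

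Of the chitinase family, 2 members could be tested apart from CHIT1. CHI3L2 was at 10.5, 14.4 and 63.1 against 2.34, 6.32 and 4.04 CPM, lower in every asthma library (log2 fold change -2.86, edgeR adjusted p = 0.795, DESeq2 adjusted p = 0.00537), with control replicate 3 far above the others. CHI3L1 was at 364, 191 and 309.9 against 248, 208 and 251 CPM, with overlap. CHIA, the acidic chitinase, had no UMI in any gated cell, which allows up to 0.0686 CPM over the 6 libraries, for counting error only.

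All 6 tested complement genes had a log2 fold change above 0, with a median of 0.76, and 1 had an unadjusted p under 0.05. That gene was C1QA, at 429, 326 and 279 against 692, 1177 and 353 CPM (edgeR adjusted p = 0.894). C1QB was at 1330.2, 737 and 434 against 1795, 2104 and 526 CPM and C1QC at 897, 466 and 487 against 1219.9, 1777 and 366 CPM. In all 3 chains asthma replicates 8 and 10 were high and asthma replicate 11 was within or below the control range. The median ranged from 0.37 without asthma replicate 10 to 1.16 without control replicate 1 when single libraries were left out. It was 0.12 with cells carrying markers of another lineage removed, where 0 members were higher. Without asthma replicate 11, 3 of 6 members were higher. The number was 0 without control replicate 2 or 3 and without asthma replicate 8 or 10. Antigen presentation had 0 of 12 members at an unadjusted p under 0.05 and a median of 0.36, which was 0.01 without asthma replicate 10, where 9 of the 12 listed genes in the files were highest. Here and below, counts of members highest or lowest in 1 library are given without the share over all genes. CD86, a costimulatory ligand, was at 47.9, 44.4 and 50.03 against 42.9, 143 and 76.6 CPM.

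Lysosomal enzymes had 0 of 19 members in either direction and a median of 0.17, which was −0.02 without asthma replicate 10 and 0.04 without control replicate 3. CTSD was at 2474, 2158 and 1921 against 2448, 4041 and 2514 CPM and CTSB (cathepsin B) at 1524, 1578 and 1846 against 1496, 3040.4 and 1682 CPM, both highest in asthma replicate 10. Iron and metal handling had 1 of 10 members higher, 2 lower and a median of -0.01. HMOX1, the haem oxygenase, was at 42.1, 30.6 and 65.9 against 74.1, 62.7 and 129 CPM and was the higher one. The lower ones were TFRC and MT2A, a metallothionein at 2.15, 14 and 15.2 against 0.935, 0.308 and 0.449 CPM found in at most 1.9% of cells of a library. FTH1 (39632, 43124 and 31964 against 39574, 39114 and 37003 CPM) and FTL (27410.3, 31081 and 26807 against 23396, 17164 and 33205 CPM) overlapped between groups.

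Chemokines had 2 of 11 members higher, CXCL10 and CCL17, 1 lower, CXCL3, and a median of 0.54. Without asthma replicate 10 there were 2 higher and 2 lower with a median of −0.05, and the median was 0.11 without asthma replicate 11 and −0.06 in cells with all 3 of FABP4, MCEMP1 and CHIT1. Without control replicate 2 there were 4 higher and 1 lower with a median of 0.39. CCL18 was at 2614, 605 and 2019.5 CPM in the control libraries and 4787, 1892 and 1491 CPM in the asthma libraries. Control replicate 2 was lowest and asthma replicate 8 highest, and the groups overlapped (log2 fold change 0.54, SE 0.56, edgeR adjusted p = 0.947). CCL17 was at 6.32, 1.08 and 7.18 against 17.4, 14.3 and 44.3 CPM (edgeR adjusted p = 0.795, DESeq2 adjusted p = 0.0391), but it was found in at most 3.92% of cells of a library. The top cell held 39.4, 80.00 and 97.1% of the CCL17 UMIs in control and 74.5, 91.4 and 61.4% in asthma. Without those cells the levels were 3.84, 0.216 and 0.212 against 4.45, 1.24 and 17.1 CPM, which overlap. CXCL8 (IL-8) was at 570.0, 242 and 283 against 155, 459.5 and 174 CPM, with overlap.

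Cytokines and growth factors had 1 of 16 members higher, 1 lower and a median of -0.02. Without asthma replicate 10 it had 1 higher, 3 lower and a median of −0.22. The opposite end was reached without control replicate 1, with 2 higher, 0 lower and a median of 0.24. PDGFB, a growth factor for mesenchymal cells, was at 1.68, 1.94 and 0.844 against 4.21, 15 and 4.27 CPM, and HBEGF, a ligand of the EGF receptor, at 494, 366 and 422 against 368, 327 and 226 CPM. IL1B was at 441, 298 and 351 against 284, 499 and 246 CPM and TNF at 7.0, 2.15 and 21.7 against 11.7, 21.4 and 5.17 CPM, both overlapping. Among genes of the IL-4 and IL-13 response 9 of 17 were abundant enough to test, 2 were higher (CCL17 and F13A1), 1 was lower (CISH) and the median was 0.13. F13A1 overlapped between the groups. On leaving out single libraries 1 to 3 members were higher. The median then lay between −0.04 without control replicate 3 and 0.30 without control replicate 2. With cells carrying markers of another lineage removed, 0 were higher, 0 lower and the median was −0.12. The transcription factor STAT6 was at 80.7, 68.9 and 66.1 against 89.8, 50.9 and 84.5 CPM, the receptor chain IL13RA1 at 79.5, 92.6 and 112 against 106, 138 and 123 CPM and the transglutaminase TGM2 at 265, 215 and 221 against 185, 79.8 and 332 CPM. The groups overlapped in all 3. CCL22, CCL24, CCL26, ALOX15, FCER2, CD209, CLEC10A and SOCS1 were too sparse for the test.

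Matrix and proteolysis genes had 1 of 14 higher, 1 lower (THBS1) and a median of 0.11, which was −0.08 without asthma replicate 10. The higher one was MMP14, a membrane-bound metalloprotease, at 181, 162 and 186 against 242, 234 and 247 CPM (log2 fold change 0.35, edgeR adjusted p = 0.852), with little spread inside the groups. FN1 (fibronectin) was at 1826, 1701 and 367 against 1236, 1091 and 570.3 CPM, lowest in control replicate 3 and asthma replicate 11. MMP12, the macrophage elastase, had no UMI in any gated cell, which allows the same 0.0686 CPM as for CHIA. Leukotriene and prostaglandin enzymes had 1 of 9 higher, 0 lower and a median of 0.12. That median was −0.02 without control replicate 1, −0.01 without asthma replicate 11 and 0.23 without control replicate 3. The higher one was PLA2G7, a secreted phospholipase that cleaves platelet-activating factor, at 10.8, 4.74 and 3.59 against 15.7, 19.6 and 26.1 CPM (edgeR adjusted p = 0.795). LTA4H, the leukotriene A4 hydrolase, was at 864, 1247 and 1399.6 against 1464, 759 and 909 CPM and ALOX5, the 5-lipoxygenase, at 128, 159.7 and 223 against 239, 128 and 193 CPM, both overlapping.

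Transcription factors and growth factor receptors of macrophages had 3 of 18 members higher, 1 lower and a median of 0.08. The higher ones were TGFBR1 (22.7, 21.5 and 23 against 31.8, 54.7 and 33.7 CPM), IFNGR2 (88.6, 64 and 73.9 against 107, 128 and 99.3 CPM) and TNFRSF1B (86.7, 64.4 and 81.5 against 167, 104 and 90.3 CPM), receptor chains for TGF-beta, interferon gamma and TNF, none of which overlapped. On leaving out single libraries 1 to 3 members were higher, with 1 without control replicate 2 or 3. The median then lay between 0.003 without asthma replicate 10 and 0.15 without asthma replicate 11. With cells carrying markers of another lineage removed, 0 of 17 were higher. PPARG was at 382, 343 and 375 against 372, 342 and 314 CPM (log2 fold change -0.20, SE 0.13, edgeR adjusted p = 0.938) and SPI1 (PU.1) at 402, 460.4 and 457 against 527, 461 and 437 CPM (log2 fold change 0.01, SE 0.14, edgeR adjusted p = 0.996). CSF1R was at 235, 153 and 158 against 178, 343 and 225 CPM, highest in asthma replicate 10. Heat shock genes had 0 of 11 higher, 1 lower and a median of -0.16. The lower one was the co-chaperone BAG3, at 88, 27.4 and 85.5 against 39.95, 31 and 20.7 CPM, with overlap. Without asthma replicate 11 the heat shock list had 0 lower and a median of −0.06. It had 0 lower without control replicate 1 or 3 as well, and 2 lower without control replicate 2 or asthma replicate 10.

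**Figure D4:**
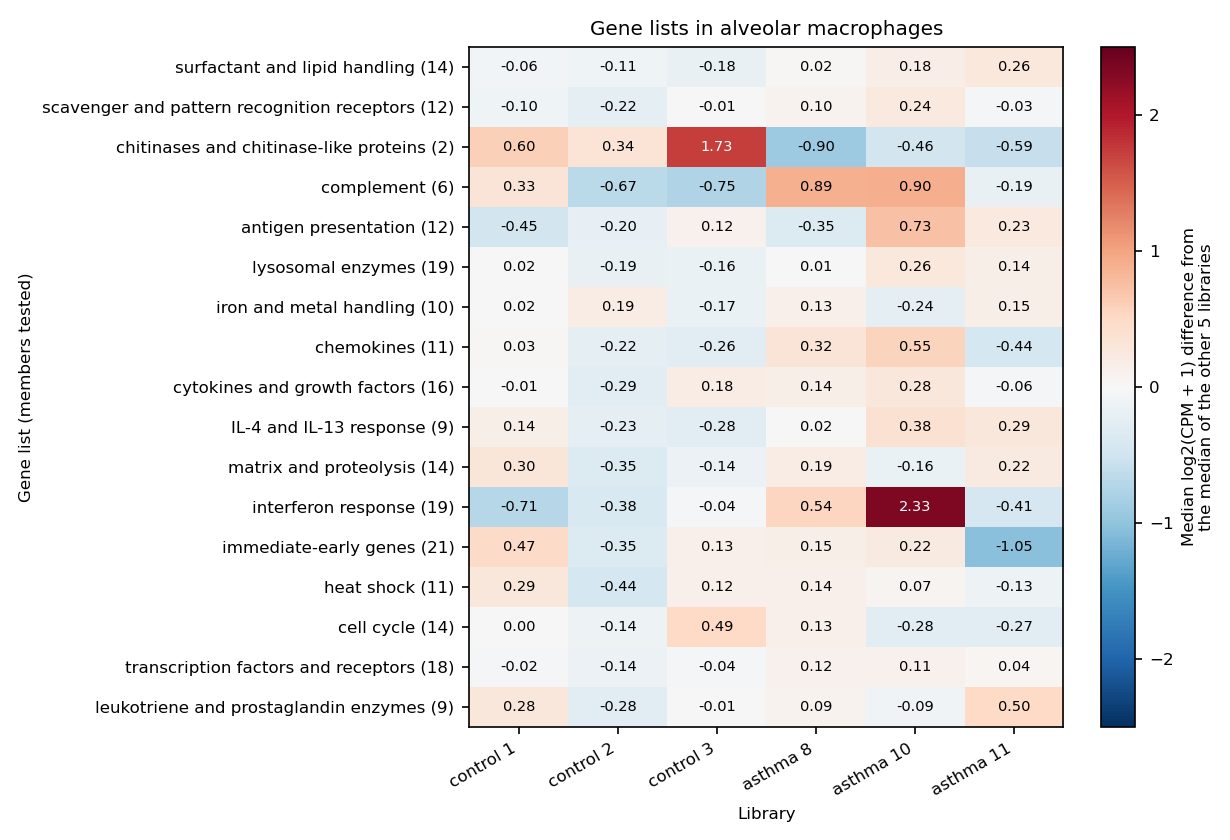
Median log2(CPM + 1) difference of each list's tested members in 1 library from the median of the other 5, for 17 lists of macrophage functions (rows, number of tested members in brackets) and 6 libraries (columns). The interferon response in asthma replicate 10 (2.33) and the immediate-early genes in asthma replicate 11 (−1.05) stand out in single libraries. The 2-member chitinase list is above 0 in all 3 control libraries, most in replicate 3 (1.73), and below 0 in all 3 asthma libraries.

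The interferon list moved with a single library. Of its 20 genes, all 20 were highest in asthma replicate 10, by a median of 2.33 on the log2 scale against the other 5 libraries. IFI6 was at 204, 262 and 241 CPM in the control libraries and 201, 1447 and 180.4 CPM in the asthma libraries. IFI27 was at 4.24, 64.6 and 1.06 CPM in the control libraries and 19, 1341 and 9.66 CPM in the asthma libraries, and the antiviral GTPase MX1 at 45.7, 23.3 and 106 against 102, 327 and 64.3 CPM. Asthma replicates 8 and 11 were within or below the control range for all 3 genes. Against the controls, 5 of 19 tested members had an unadjusted p under 0.05, all higher, with a median log2 fold change of 1.32. Without asthma replicate 10 there were 1 higher and 1 lower and the median was 0.15, and without asthma replicate 11 there were 17 higher with a median of 1.76. The genes were as broadly found as they were high there, with a UMI of IFI27 in 72.6% and of ISG15 in 62.5% of its gated cells. The FOLR2 macrophages of the same library also stood high, with 1132 CPM of IFI27 (elsewhere 8.82 to 73.7 CPM) and 938 CPM of IFI6 (elsewhere 108 to 161 CPM).

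Immediate-early genes, which cells transcribe within minutes of a stimulus and which tissue dissociation is known to induce, were low in another library. Of 22 genes in the files, 19 were lowest in asthma replicate 11, by a median of −1.05. FOS was at 2409.6, 1553 and 1874 CPM in the control libraries and 1538, 2406 and 599.9 CPM in the asthma libraries. ZFP36, which destabilizes cytokine mRNAs, was at 1094, 688 and 1073 against 1129, 982 and 346 CPM, and the phosphatase DUSP1 at 999, 653 and 980.3 against 822, 1135 and 359 CPM. CD69 was at 729.7, 341 and 112 against 91.2, 284 and 26.5 CPM, highest in control replicate 1. Asthma replicate 11 was the lowest library in all 4 genes, and asthma replicate 10 was within or above the control range. The list had 0 of 21 tested members higher, 1 lower (JUNB) and a median of -0.32, which was −0.06 without asthma replicate 11. Without asthma replicate 10 it had 5 lower and a median of −0.53. FOS was lowest in asthma replicate 11 in FOLR2 macrophages (1430.2 CPM against 2193 to 5031 CPM) and VCAN monocytes (2171 CPM against 3046 to 7267 CPM) too.

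**Figure D5:**
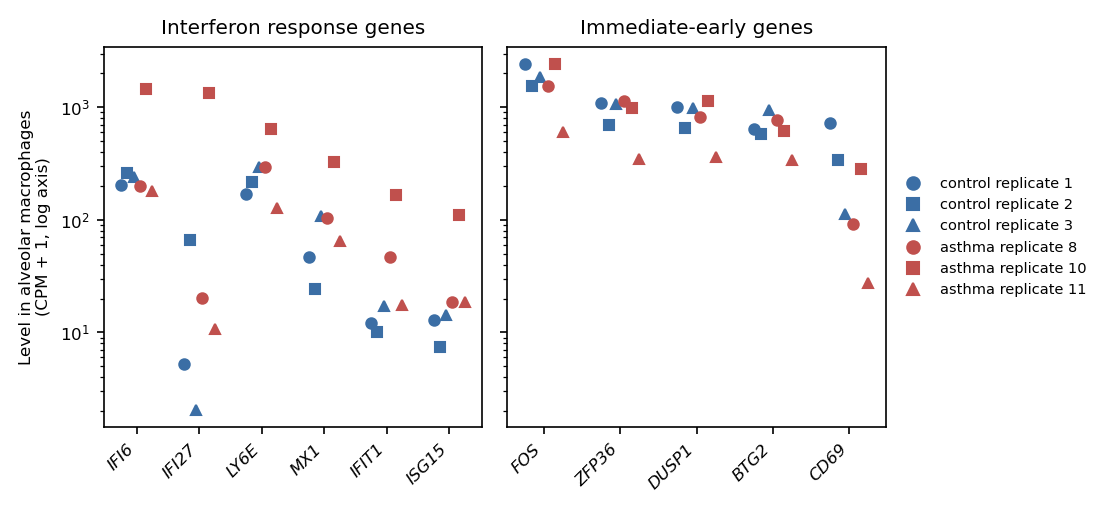
Levels in alveolar macrophages (CPM + 1, log axis) of 6 interferon response genes (left) and 5 immediate-early genes (right), 1 point per library. Asthma replicate 10 (red squares) is highest in all 6 on the left, with IFI6 at 1447 CPM, and asthma replicate 11 (red triangles) is lowest in all 5 on the right, with FOS at 599.9 CPM.

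Cell cycle genes had 0 of 14 tested members at an unadjusted p under 0.05 and a median of -0.48. Of 18 genes in the files, 11 were highest in control replicate 3, and without that library the median was −0.15. The proliferation marker MKI67 was at 4.17, 4.74 and 9.92 against 2.8, 4.93 and 0 CPM, where the 0 allows up to 0.674 CPM, and STMN1, a microtubule regulator, at 31.5, 245 and 49.8 against 27.7, 105 and 17.5 CPM. Cells were counted as cycling if, after thinning to 2000 UMIs, at least 2 of 8 measured cell cycle genes had a UMI. There were 9 of 715, 2 of 163 and 6 of 211 in control and 2 of 396, 1 of 282 and 0 of 199 in asthma, where the 0 allows a share of up to 1.51%. The means were 1.78 ± 0.924% and 0.287 ± 0.259% (SD, n = 3 each), with no overlap (p = 0.1, exact permutation test, the smallest it can give). T cells of the same libraries, counted the same way, gave 2.80, 4.57 and 10.9% in control and 2.57, 1.86 and 0.451% in asthma. Every gated share lay below the T-cell share of its library. The paper describes T and NK subsets with proliferation genes, so the T-cell shares set no background for cycling. Whether gated cells cycled was not tested. Without thinning the shares were 7.08, 10.4 and 11.4% in control and 10.1, 2.11 and 7.84% in asthma, which overlap.

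Markers of other cell types were summed in the gated cells. Of 11 epithelial markers all were detected, SFTPC being the most abundant, and their sum was 655, 33.6 and 23 CPM over the control libraries and 876, 60.7 and 2973 CPM over the asthma ones. All 10 tested members had a log2 fold change above 0, with a median of 1.69, and 1, AGER, had an unadjusted p under 0.05. Without control replicate 1 there were 8 of 10 higher and the median was 3.96, and in cells with all 3 of FABP4, MCEMP1 and CHIT1 it was −0.04 over 5 tested members. Asthma replicate 11 was highest, where 1 cell held 99.7% of the UMIs of the secretory gene SCGB3A2. SFTPC alone was found in 17.1 to 92.2% of gated cells and in 7.25 to 84.3% of T cells. B and plasma cell markers summed to 203, 213 and 2.74 CPM over the control libraries and 4.79, 6.01 and 5.62 CPM over the asthma ones, with MS4A1 at 0 by the rule. The immunoglobulin chain IGKC, which is not in that list and was picked out after its values were seen, was at 731, 2899 and 1.06 against 0.701, 2.31 and 10.8 CPM, highest in control replicates 1 and 2 and found in at most 12.3% of cells of a library (edgeR adjusted p = 0.795, DESeq2 adjusted p = 0.0215). Nearly all of the listed sum was JCHAIN in control replicates 1 and 2 (199 and 208 CPM). JCHAIN, the joining chain of secreted antibodies, thus had a log2 fold change of -5.57 (edgeR adjusted p = 0.795) with control replicate 3 at 1.48 CPM.

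Monocyte markers summed to 662, 1044 and 1638 CPM over the control libraries and 505, 829 and 706 CPM over the asthma ones, S100A9 being the most abundant at 283, 666 and 1061 against 234, 358 and 370.1 CPM. T and NK markers summed to 178, 287 and 69.5 CPM over the control libraries and 148, 242 and 82.2 CPM over the asthma ones, of which CCL5 was the most abundant and CD3D and CD3E were at 0 by the rule. Endothelial markers summed to 478, 650.0 and 707 CPM over the control libraries and 802, 385 and 597 CPM over the asthma ones, most of it PECAM1, which was found in 89.6 to 100% of gated cells. Neutrophil markers summed to 102, 67.7 and 248 CPM over the control libraries and 128, 126 and 124 CPM over the asthma ones. The sums of these 4 lists overlapped between the groups. At an unadjusted p under 0.05 they had 1 lower member, S100A9, and 1 higher, the endothelial VWF at 5.79, 9.05 and 16.7 against 25.7, 27.4 and 38.2 CPM, with no overlap (edgeR adjusted p = 0.795).

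Stromal markers summed to 62.4, 85.1 and 148 CPM over the control libraries and 49.1, 12.8 and 63.6 CPM over the asthma ones, led by DCN, and mesothelial markers to 156, 19 and 7.81 CPM over the control libraries and 189, 134 and 7.19 CPM over the asthma ones, led by ITLN1. The stromal list had 0 of 7 tested members higher, 2 lower and a median log2 fold change of −0.76. With at least 200 genes and no maximum it had 2 higher, 0 lower and a median of 0.77. Mast cell, dendritic and erythroid markers each summed to at most 14.6 CPM in a library, and the dendritic gene XCR1 was at 0. LAMP3, a lysosomal membrane protein of mature dendritic cells and the 1 dendritic marker that could be tested, was higher in every asthma library, at 2.96, 1.72 and 0.633 against 13.9, 7.86 and 8.09 CPM (log2 fold change 2.25, edgeR adjusted p = 0.795, DESeq2 adjusted p = 0.0139). In asthma replicate 11, 1 cell held 75% of its UMIs, and without the top cells the groups overlapped. DCN lay apart between the groups with the stromal sum lowest in asthma replicate 10. Whether stromal RNA accounts for DCN was not tested.

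Genes that the study itself names for macrophages, 27 in all, were chosen on these samples and so are not independent evidence of a direction. Of the 23 that the gate left testable, 6 were higher at an unadjusted p under 0.05, 0 were lower and the median log2 fold change was 0.42. Without asthma replicate 10 there were 3 higher and 3 lower with a median of 0.01, and with cells carrying markers of another lineage removed 1 higher and a median of −0.06. The 6 were FOLR2, CCL17, CXCL10, TMEM176B, C1QA and ICAM1. TMEM176B was at 53, 47.4 and 27.2 against 40.9, 329 and 109 CPM, high in asthma replicates 10 and 11 and overlapping in replicate 8. ICAM1, the adhesion molecule, was at 32.6, 42.9 and 31.5 against 79.9, 53.6 and 42.5 CPM, with overlap between control replicate 2 and asthma replicate 11. IDO1, the tryptophan-degrading enzyme, was at 15.8, 52.4 and 19.2 against 36.9, 113 and 16.9 CPM and CD40 at 21.3, 22.6 and 11.6 against 25.6, 38.1 and 15.7 CPM. The integrin chain ITGB2 was at 426, 449 and 514 against 746, 536 and 408 CPM, AIF1 at 1059.5, 1069 and 1012 against 865, 886 and 1103 CPM, COTL1 at 316, 367 and 373 against 545, 478 and 358 CPM, H2AZ1 at 532, 530.2 and 579.9 against 487, 336 and 536 CPM and LTC4S at 16.8, 10.8 and 4.43 against 10.05, 21.4 and 28.1 CPM, and the groups overlapped in each of these.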

How the data were processed

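The authors deposited UMI counts per gene and barcode for 1 Chromium library per monkey, whole numbers that were not normalized, from Cell Ranger with the macFas6 genome. The processing notes name Cell Ranger 2.1.1 and the file headers 4.0.0. No column of another sample was present. Cells were kept and gated as the results state. Counts of the gated cells were summed per library, 4450547 to 14861729 UMIs, and tested with edgeR 4.0.16 (quasi-likelihood, TMM, filterByExpr, Benjamini-Hochberg adjustment) in R 4.3.3, asthma against control without covariates, a script tested on simulated data. Shares were compared with exact permutation tests. DESeq2 1.42.0, Scrublet through scanpy 1.11.5, Python 3.11.15, numpy 2.4.6, scipy 1.17.1 and pandas 2.3.3 were used as well. Counting intervals and floors (3 counts) cover counting error only. CPM of a gene is a share of its library's gated UMIs, so it moves when other genes do.

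Genes were named by a rule: the gate genes, those the study names for macrophages, the 20 most abundant, up to 12 per direction called or, failing that, not overlapping with p under 0.05 and at least 20 CPM, the 4 most abundant of each list, and the 10 with the largest ratio over FOLR2 macrophages (at least 50 CPM). Other genes were chosen after their values were seen. The members and lists were chosen with earlier results of these data known. Alternatives covered the cell filters, the gate, doublets, thinning to 2000 UMIs, the denominator, the test, the filter on low counts and single libraries left out. The scaling by TMM and the removal of top cells were chosen after seeing the data. The list counts include 1 gene that is not reported here. Gene IDs without a symbol were not named, and sequences were not used here.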

Additional observations from a re-analysis of the deposited data

How the results depend on the processing

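The difference in the share of alveolar macrophages ranged from −4.06 to 1.76 percentage points when each library was left out in turn, and among these it reversed only without control replicate 1 (1.76). Under the other alternatives it stayed below 0, from −6.68 with cells without T or NK markers as the denominator to −0.17 with cells carrying markers of another lineage removed. The cycling difference was −1.76 to −0.96 points on leaving out libraries, −2.95 without thinning, −0.51 with at least 3 genes required and −0.79 with the highest Scrublet scores removed. The number of called genes was 0 as reported, 1 with cells thinned before the gate (ATP6V0D2), 2 with genes of at least 1 count kept (FOLR2 and ATP6V0D2), 25 with DESeq2 (12 up, 13 down), 278 with the Wilcoxon test across cells and 0 to 1 on leaving out libraries, where JCHAIN was called without control replicate 3, ATP6V0D2 without asthma replicate 11 and a gene without a symbol without control replicate 2. Over the 24 genes with no overlap, 356 of 369 values under alternatives kept the direction and the side of the threshold, 12 passed it (8 genes under DESeq2) and 1 reversed, CPVL, at −0.22 with cells carrying markers of another lineage removed, which leaves 10 to 139 cells per library. Genes with no overlap numbered 1181 in plain CPM and 1052 on the TMM scale. No paired analysis was possible because the groups share no replicate number. Genes with few UMIs, such as ATP6V0D2 with 2 in asthma replicate 11, rest on few molecules. The cause of each change above was not tested.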

Other observations

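DESeq2 called 3 further genes that were picked out here after their values were seen. EPB41L2, a membrane skeleton protein, was at 14.7, 19.4 and 19 against 49.1, 38.2 and 43.8 CPM (DESeq2 adjusted p = 4.86e-04, edgeR adjusted p = 0.50). GBP2, an interferon-induced GTPase, was at 6.66, 2.8 and 6.33 against 31.9, 27.7 and 13.5 CPM (DESeq2 adjusted p = 8.94e-04, edgeR adjusted p = 0.795). The metallothionein MT1G was at 1.41, 3.23 and 7.39 against 33.2, 21.3 and 40.4 CPM (DESeq2 adjusted p = 2.89e-05, edgeR adjusted p = 0.795), while MT2A was at 2.15, 14 and 15.2 against 0.935, 0.308 and 0.449 CPM in the opposite direction. All 3 asthma libraries lay above the controls for the first 3, and unlike the interferon list GBP2 was highest in asthma replicate 8.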
